A study of Mus musculus with 9 samples.

Results

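Hox genes encode the homeodomain transcription factors that give cells along the head-to-tail axis their positional identity, and the report covers the genes of the Hoxa, Hoxb, Hoxc and Hoxd clusters in the deposited table. Members were chosen by symbol alone, Hoxa, Hoxb, Hoxc or Hoxd followed by a number, after transcript values had been summed per gene. The table lists 34 of the 39 annotated mouse Hox genes among its 13787 genes, and 33 of them are described, 10 in Hoxa, 8 in Hoxb, 8 in Hoxc and 7 in Hoxd. All counts, sums and medians of Hox genes are over these. Hoxb1, Hoxb13, Hoxc12, Hoxd1 and Hoxd3 were not analysed here. Transcript level is given as FPKM, a fragment count divided by transcript length and by the size of the library, so that levels can be set side by side between genes.

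The 9 RNA libraries formed 3 groups of 3. Mouse embryonic fibroblasts (MEFs) of the CF-1 strain at passage 3 were the control group and received no chemicals. Chemically induced extraembryonic endoderm-like (ciXEN) cells were made from such MEFs with valproic acid, CHIR99021 (a GSK3 inhibitor), RepSox (a TGF-beta receptor inhibitor), Parnate, forskolin, the retinoic acid receptor alpha agonist AM580, the DOT1L inhibitor EPZ004777 and the growth factor bFGF, on Matrigel and without any transgene. Lines 1-1, 2-1 and 3-3, each grown out of picked clones, were sequenced at passage 5 (p5) and again at passage 30 (p30). All ciXEN cells were kept in a maintenance medium that still held these compounds, with bFGF, CHIR99021 and forskolin lowered, so cell type and medium cannot be told apart in any comparison with MEFs.

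Vertebrate Hox genes lie in 4 clusters, and genes at the same place in different clusters are paralogs that share a number. Low-numbered (anterior) genes switch on early and near the head, and high-numbered (posterior) genes switch on late and near the tail and in the limbs. Retinoic acid and Wnt signals open the anterior end of a cluster in the embryo, Polycomb complexes hold silent clusters closed and Trithorax-type complexes keep active ones open. Fibroblasts keep the Hox code of the body site they came from in culture, whereas extraembryonic endoderm, the yolk sac lineage, lies outside the embryonic axis. In the text, paralog groups 1 to 3 are called anterior, 4 to 8 central and 9 to 13 posterior.

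The part of the coding sequence that the family shares is the homeobox. A single homeobox of 180 bases was found in the coding sequence of all 33 genes in the GENCODE transcripts on GRCm38. The 3 below are from a central member that rose (Hoxc4) and the members with the greatest falls on the log2(FPKM + 1) scale in the central and posterior groups (Hoxc8 and Hoxd13), written 5′ to 3′ on the coding strand, with the 18 bases that encode the conserved core of the third helix, which contacts DNA, in capitals.
Hoxc4: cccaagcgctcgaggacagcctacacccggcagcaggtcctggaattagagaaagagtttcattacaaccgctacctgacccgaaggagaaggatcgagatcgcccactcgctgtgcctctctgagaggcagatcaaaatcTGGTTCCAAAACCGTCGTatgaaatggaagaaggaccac
Hoxc8: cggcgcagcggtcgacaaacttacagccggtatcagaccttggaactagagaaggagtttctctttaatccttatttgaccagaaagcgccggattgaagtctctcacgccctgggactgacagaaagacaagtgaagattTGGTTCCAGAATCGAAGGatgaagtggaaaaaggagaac
Hoxd13: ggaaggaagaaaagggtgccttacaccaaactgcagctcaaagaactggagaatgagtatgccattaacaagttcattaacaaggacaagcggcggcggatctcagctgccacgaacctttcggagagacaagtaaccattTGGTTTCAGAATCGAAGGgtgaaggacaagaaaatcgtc
Hoxc4 and Hoxc8 had 63.9% of these bases in common, and Hoxc4 and Hoxd13 90 of the 180. Over all 528 pairs of members the identity ran from 46.1% (Hoxa6 and Hoxd13) to 93.9% (Hoxa3 and Hoxb3), with a median of 62.2%. The longest run of identical coding bases shared by a pair was 52, between Hoxa6 and Hoxb4, and the median was 14.

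Over their summed levels, ciXEN cells were high in the markers of their label and low in those of fibroblasts. The summed FPKM of 8 fibroblast markers was 2546 to 3059 in MEFs and 12.0 to 23.1 in ciXEN cells, and that of 8 extraembryonic endoderm markers was 65.5 to 82.1 and 996 to 1378. Single markers went less far. Twist1 was still at 2.04 to 9.87 FPKM at p5 and 10.5 to 15.9 at p30, beside 39.6 to 54.4 in MEFs, and Thy1 at 4.42 to 10.2 FPKM at p5. The endoderm marker Dab2 was lower at p5 than in MEFs (14.9 to 16.7 against 27.5 to 31.1 FPKM, limma adjusted p = 0.00561). Markers of other cells moved as well. All 6 tested macrophage markers were lower in ciXEN cells, beside 27.6% of all tested genes. The sum of the 7 that were listed was 94.6 to 169 FPKM in MEFs and 1.48 to 3.43 in ciXEN cells. Adgre1, C1qa and Fcer1g were listed at 0 in all 6 ciXEN libraries, and no listed macrophage marker was at 0 in MEFs. The 4 listed endothelial markers summed to 1.69 to 2.25 FPKM in MEFs and 6.15 to 18.7 in ciXEN cells, where Emcn was listed at 0 and Cdh5 and Tek were higher, and the 4 listed neural markers to 53.9 to 58.8 and 10.8 to 27.8, with Pax6 listed at 0 in MEFs. The neural markers went both ways, with Map2 at 49.0 to 49.9 FPKM in MEFs and 0.0583 to 1.58 in ciXEN cells and Elavl4 at 0.218 to 0.393 and 9.41 to 19.6. Their part in the Hox values was not tested. In bulk RNA, fewer cells of a type and less RNA per cell cannot be told apart. The deposited values sum to between 315395 and 342201 FPKM in a library, and no read counts were used, so the depth behind each value is unknown.

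Fewer Hox genes reached 1 FPKM in ciXEN cells than in MEFs. Between 26 and 28 of the 33 genes reached it in a MEF library, against 13 to 17 in a ciXEN library. The same count was not made over all genes, so whether it is particular to Hox genes was not tested. The sum over these Hox genes was 157.5, 165.5 and 160.8 FPKM in the MEFs, 54.0, 57.6 and 96.8 at p5 and 72.7, 84.7 and 81.4 at p30. The 4 clusters differed in their sums, which are given without a test. Hoxa summed to 61.6 ± 2.05 FPKM (SD, n = 3) in MEFs, 38.2 ± 12.3 at p5 and 46.5 ± 3.43 at p30. Hoxb summed to 28.8 ± 4.32 FPKM in MEFs, 5.27 ± 4.54 at p5 and 8.05 ± 2.63 at p30. The values for Hoxc were 43.4 ± 2.78, 18.8 ± 3.89 and 23.2 ± 4.73, and for Hoxd 27.4 ± 3.27, 7.31 ± 5.07 and 1.80 ± 1.26. In all 4 clusters every ciXEN library was below every MEF library. Hoxa transcripts made up 35.9% to 39.5% of the Hox sum in MEFs and 47.9% to 65.2% in ciXEN cells, while Hoxd went from 15.8% to 19.3% down to 0.982% to 13.5%. The smallest shares of Hoxd were those of lines 2-1 and 3-3 at p30.

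**Figure D1:**
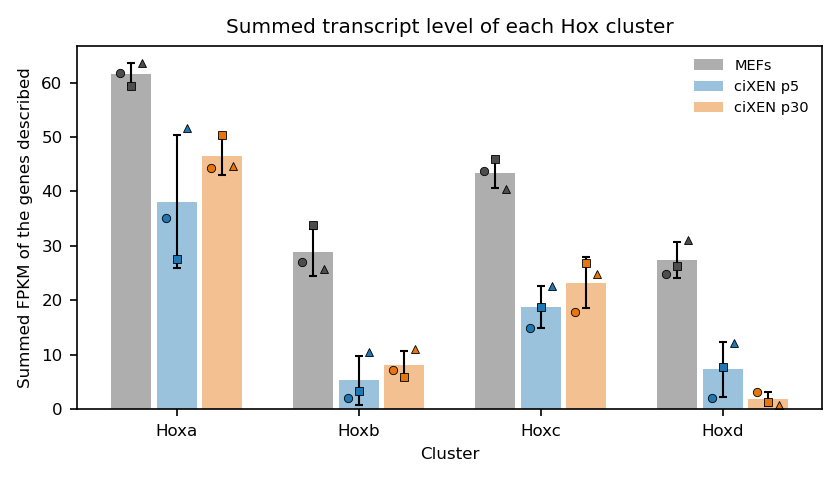
Summed FPKM of the genes described of each Hox cluster (vertical axis) in MEFs, ciXEN p5 and ciXEN p30; bars are means, error bars SD (n = 3) and symbols single libraries, with the circle, square and triangle of ciXEN cells standing for lines 1-1, 2-1 and 3-3. Hoxa had means of 61.6, 38.2 and 46.5 FPKM, while Hoxd went from a mean of 27.4 FPKM in MEFs to 1.80 at p30.

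Of the 33 members, 29 reached a mean of 0.5 FPKM over the 9 libraries and were tested. The members nearest to that limit were Hoxd4 at 0.530 FPKM, tested, and Hoxd11 at 0.468 FPKM, not tested, and Hoxb5, Hoxc11 and Hoxc13 were not tested either. Hoxb2 and Hoxd12, listed at 0 in every ciXEN library, reached the limit through the MEF libraries alone and could only come out lower. Hoxa6, Hoxb3, Hoxb6, Hoxb8, Hoxb9, Hoxc8, Hoxd4 and Hoxd13 also had ciXEN means below 0.5 FPKM. Such members weigh on the counts of lower genes below. Of the tested members, 4 were higher and 18 lower in ciXEN cells than in MEFs by limma (adjusted p under 0.05), and 7 did not pass. This is 75.9% called, beside 70.1% of all 12443 genes tested, so a call as such says little in this comparison. By direction, 62.1% of tested Hox genes were called lower, beside 27.6% of all tested genes, and 13.8% were called higher, beside 42.4%. The median difference in log2(FPKM + 1) was −0.99 over the tested Hox genes and 0.20 over all tested genes. The FPKM ranges of ciXEN cells and MEFs did not overlap for 20 of the 29, 4 higher and 16 lower, beside 61.3% of all genes, of which 36.8% were higher and 24.4% lower. Against MEFs, p5 had 3 Hox genes higher and 17 lower (69.0%, beside 66.5% of all genes, 40.7% higher and 25.8% lower) and p30 had 4 higher and 16 lower (69.0%, beside 64.8%, 38.2% higher and 26.6% lower). These comparisons share the same MEF libraries.

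**Figure D2:**
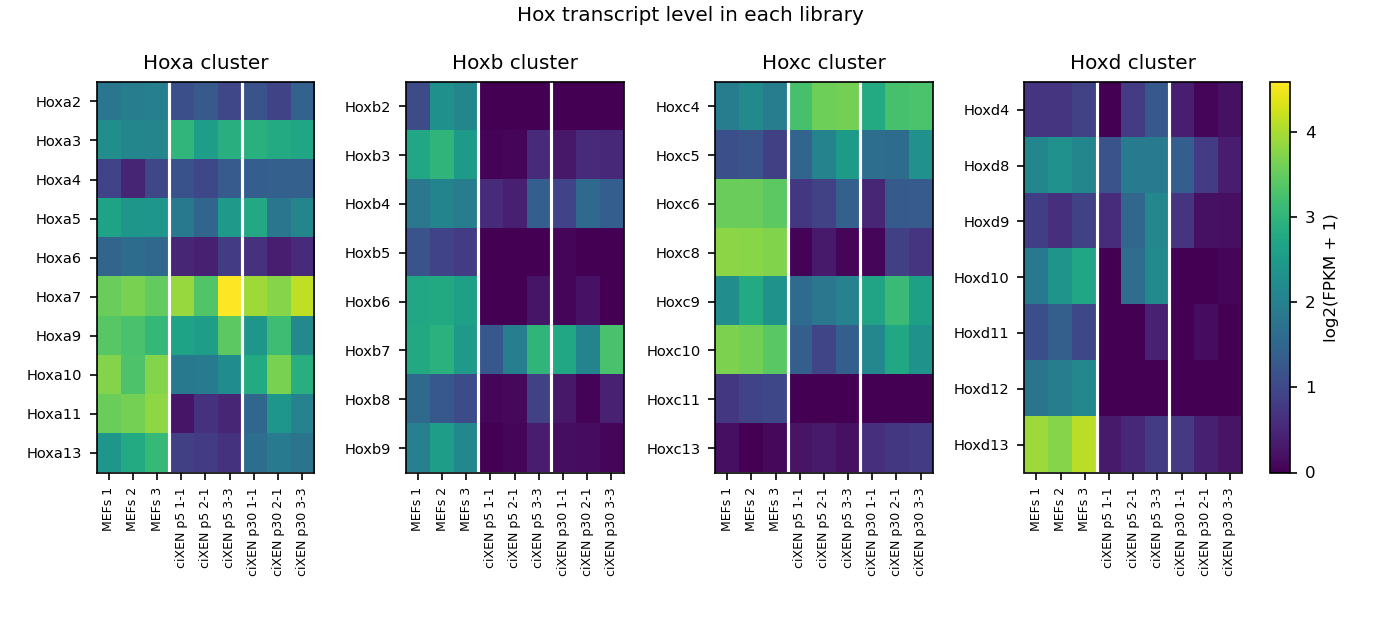
Transcript level of 33 Hox genes in each of the 9 libraries, as colour on the log2(FPKM + 1) scale, with genes in order of paralog number within each cluster and white lines between MEFs, ciXEN p5 and ciXEN p30. Hoxc8 goes from 12.2 to 12.8 FPKM in MEFs to 0.0272 to 0.815 in ciXEN cells. A mean of at least 1 FPKM was reached by 7 of 8 Hoxb genes in MEFs, 1 at p5 and 2 at p30. For Hoxd it was reached by 5 of 7 genes in MEFs, 3 at p5 and 0 at p30.

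Along the clusters, differences from MEFs tended to lie lower at higher paralog numbers. Spearman's rho between paralog number and the log2 difference of ciXEN cells from MEFs was −0.39 over the 29 tested genes, −0.72 over the 10 of Hoxa, −0.83 over the 6 of Hoxd, −0.54 over the 6 of Hoxc and 0.14 over the 7 of Hoxb. These are descriptions across genes that were measured in the same libraries and are not independent. A fall on the log2(FPKM + 1) scale is also bounded by the level in MEFs. Hoxd12, listed at 0 in every ciXEN library, reached only −1.93, whereas Hoxd13, 32.7-fold lower in the mean, reached −3.42. The part of the MEF level in these values was not tested. No tested posterior gene was called higher, 8 of the 11 were lower, and their median difference was −1.66. With no filter the posterior Hoxc13 was called higher, and Hoxc11 and Hoxd11 lower. The 14 tested central genes had 3 higher and 7 lower with a median of −0.67, and the 4 anterior genes had 1 higher and 3 lower with a median of −1.28. Beside these counts, 42.4% of all tested genes were higher and 27.6% lower.

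**Figure D3:**
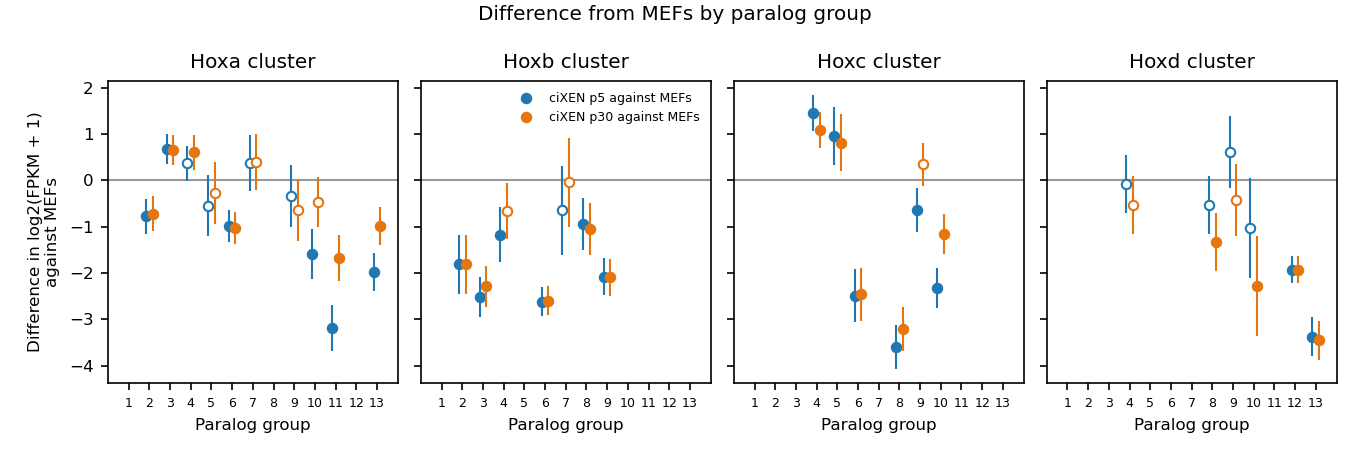
Difference in log2(FPKM + 1) from MEFs (vertical axis) by paralog group (horizontal axis) for the tested Hox genes of each cluster, at p5 (blue) and p30 (orange), with 95% confidence intervals; filled points passed the adjusted p threshold of 0.05. Hoxc4 stands at 1.45 and 1.09, and Hoxd13 at −3.38 and −3.46.

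Among anterior genes, Hoxa3 rose, and its neighbour Hoxa2 and its paralog Hoxb3 fell. Hoxa3 (chr6:52169062-52213336, minus strand, GRCm38), which is required for the thymus and parathyroid, was at 3.82, 3.32 and 3.27 FPKM in MEFs, at 7.07, 4.96 and 6.45 at p5 and at 6.50, 5.99 and 5.56 at p30. It was 1.76-fold higher with no overlap (log2 difference 0.66, SE 0.13, adjusted p = 0.00116). Hoxa2, which directs the identity of the second pharyngeal arch, went the other way, from 2.48 to 2.93 FPKM in MEFs down to 0.911 to 1.72 FPKM in ciXEN cells (log2 difference −0.75, SE 0.14, adjusted p = 0.00115).

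The Hoxb members of the same paralog groups fell. Hoxb3 was at 5.66, 6.99 and 4.61 FPKM in MEFs, at 0.0318, 0.0464 and 0.474 FPKM at p5 and at 0.223, 0.454 and 0.432 FPKM at p30, 20.8-fold lower in the mean (log2 difference −2.40, SE 0.17, adjusted p = 1.45e-06). Hoxb2, which acts in facial motor neurons, was at 1.08, 3.91 and 3.29 FPKM in MEFs and listed at 0 in all 6 ciXEN libraries. It was tested through its MEF values alone, so its call could only be lower. Thus Hoxa3 and Hoxb3, whose homeoboxes were the most alike of all pairs, moved in opposite directions. The annotated exons of Hoxb2 and of the long Hoxb3 transcripts overlap the antisense gene Hoxb3os on the other strand over 58.5% and over 50.9% to 70.5% of their bases. Of the exon bases of Hoxa3-201, 25.6% overlap antisense genes (Gm29430, Hoxaas2 and Hoxaas3) and 10.1% are shared with Gm28308 on the same strand, and antisense genes overlap 16.0% of Hoxa4-201 and 28.8% of Hoxa7-201. The library kit marks strand, but none of the sources used here says whether the values were computed by strand, so reads of both strands may be counted together there.

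Central genes differed by cluster. In Hoxc, the adjacent Hoxc4 and Hoxc5 rose and Hoxc6 and Hoxc8 fell steeply. Hoxc4 (chr15:103018934-103036852, plus strand) was at 2.85, 3.56 and 2.85 FPKM in MEFs, at 8.46, 10.8 and 11.4 at p5 and at 5.96, 8.51 and 8.77 at p30. All ciXEN libraries lay above all MEF libraries, 2.91-fold in the mean (log2 difference 1.27, SE 0.15, adjusted p = 5.14e-05). Hoxc5 went from 0.824 to 1.26 FPKM in MEFs to 1.82 to 4.66 FPKM in ciXEN cells (log2 difference 0.88, SE 0.24, adjusted p = 0.00834). Its call at p30 against MEFs (log2 difference 0.81, adjusted p = 0.0271) was lost without MEF library 1 (adjusted p = 0.0555), MEF library 3 (adjusted p = 0.0882) or the p30 library of line 3-3 (adjusted p = 0.0964).

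Hoxc8 (chr15:102990607-102994111, plus strand), which specifies thoracic vertebrae and brachial motor neurons, was among the highest Hox genes in MEFs, at 12.8, 12.6 and 12.2 FPKM. It was at 0.0272, 0.261 and 0.0604 FPKM at p5 and at 0.0444, 0.815 and 0.633 FPKM at p30. The mean was 40.8-fold lower in ciXEN cells (log2 difference −3.41, SE 0.18, adjusted p = 2.15e-07). Hoxc6, its thoracic neighbour, was at 10.6, 10.6 and 9.80 FPKM in MEFs and at 0.404 to 1.66 FPKM in ciXEN cells, 9.48-fold lower (log2 difference −2.48, SE 0.22, adjusted p = 7.09e-06). Among the called members of Hoxc, those that rose and those that fell thus met between Hoxc5 and Hoxc6. Not all members beyond Hoxc6 fell. Hoxc9 did not pass over both passages (log2 difference −0.15, limma adjusted p = 0.470), and the untested Hoxc13 was higher in every ciXEN library than in every MEF library.

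In Hoxb, every tested central gene except Hoxb7 fell. Hoxb6 was at 5.64, 5.86 and 5.10 FPKM in MEFs and was listed at 0 in 3 of the 6 ciXEN libraries, with 0.0640 to 0.197 FPKM in the others (77.5-fold lower in the mean, log2 difference −2.61, SE 0.12, adjusted p = 8.89e-08). Hoxb4, known for expanding blood stem cells, was at 2.54 to 3.22 FPKM in MEFs and at 0.327 to 1.98 in ciXEN cells (log2 difference −0.92, SE 0.23, adjusted p = 0.00552). At p30 against MEFs Hoxb4 missed the threshold in the fit of all 9 libraries (log2 difference −0.67, adjusted p = 0.0511). It passed with the replicate block (adjusted p = 0.0469), with only MEF and p30 libraries in the fit (0.0232), with equal library sums (0.0391) and with no trend (0.0488). Leaving out the p30 library of line 2-1, or the p5 library of line 2-1 or of line 3-3, also made it pass. Hoxb8 was at 1.09 to 2.01 FPKM in MEFs and at 0.0373 to 0.881 in ciXEN cells (log2 difference −0.99, adjusted p = 0.00242). Hoxb7, which lies between 2 members that fell, was at 5.90, 6.62 and 4.56 FPKM in MEFs, at 1.41, 2.91 and 7.03 at p5 and at 5.66, 3.19 and 8.59 at p30. Its ranges overlapped and its difference of −0.35 (95% confidence interval −1.18 to 0.49) did not pass, and the line 3-3 libraries were the highest at both passages. Without the p5 library of line 3-3, Hoxb7 was called lower at p5 against MEFs (log2 difference −1.11, adjusted p = 0.0242). Hoxb5, between Hoxb4 and Hoxb6, was below the limit for testing, at 0.763 to 1.26 FPKM in MEFs and listed at 0 in 5 of the 6 ciXEN libraries.

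In the central part of Hoxa, Hoxa4 rose, Hoxa6 fell and the most abundant gene did not pass. Hoxa7 was at 10.6, 11.7 and 10.2 FPKM in MEFs, at 13.7, 9.07 and 23.0 at p5 and at 14.3, 12.5 and 16.8 at p30 (log2 difference 0.38, 95% confidence interval −0.14 to 0.90). Hoxa5, which acts in lung and in the cervical skeleton, was at 4.29 to 5.34 FPKM in MEFs and at 1.83 to 5.79 in ciXEN cells (log2 difference −0.42, 95% confidence interval −0.99 to 0.16). Neither passed the test. Without the p5 library of line 2-1, Hoxa7 was called higher (adjusted p = 0.0230). Hoxa5 was called lower at p5 without the p5 library of line 3-3 (adjusted p = 0.0313). Hoxa6, between them, fell from 1.83 to 2.08 FPKM to 0.306 to 0.769 FPKM (log2 difference −1.01, SE 0.13, adjusted p = 0.000100). Hoxa4 was low throughout and rose from 0.383 to 0.973 FPKM in MEFs to 1.00 to 1.65 in ciXEN cells (log2 difference 0.49, adjusted p = 0.0135). Against MEFs it did not pass at p5 (log2 difference 0.37, adjusted p = 0.0774) and passed at p30 (0.60, adjusted p = 0.0104). Hoxd4 stayed at or below 1.40 FPKM in every library and did not pass, and 64.0% of its annotated exon bases are shared on the same strand with the transcript Gm28230. Hoxd8 fell from 3.30 to 4.01 FPKM in MEFs to 0.285 to 2.72 FPKM in ciXEN cells (log2 difference −0.93, SE 0.24, adjusted p = 0.00643). Its difference from MEFs did not pass at p5 (log2 difference −0.53, adjusted p = 0.118) and passed at p30 (−1.34, adjusted p = 0.00217).

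In the calls over both passages, paralogs of the same number moved alike in some groups and not in others. In group 4, Hoxa4 and Hoxc4 rose and Hoxb4 fell. In group 6 all 3 listed genes fell, as did all 3 in group 8. In group 7, Hoxa7 and Hoxb7 both missed the threshold.

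Most tested posterior genes fell. Hoxd13 (chr2:74668310-74671599, plus strand), which shapes the digits and the genital tubercle, was the highest Hox gene in each MEF library, at 14.0, 12.4 and 16.3 FPKM, except that Hoxc8 was slightly higher in MEF library 2. It was at 0.261, 0.429 and 0.738 FPKM at p5 and at 0.685, 0.326 and 0.176 FPKM at p30, 32.7-fold lower in the mean (log2 difference −3.42, SE 0.16, adjusted p = 1.14e-07). Hoxd12 was at 2.38, 2.77 and 3.33 FPKM in MEFs and listed at 0 in all 6 ciXEN libraries. It was tested through its MEF values alone, so its call could only be lower. Hoxc11 was at 0.675 to 1.00 FPKM in MEFs and likewise listed at 0 in all 6, and Hoxd11 was at 0.996 to 1.62 FPKM in MEFs and listed at 0 in 4 of 6. Both were below the limit for testing. Hoxb9, a thoracic gene, was at 2.97, 4.90 and 3.41 FPKM in MEFs and at 0 to 0.293 FPKM in ciXEN cells (34.8-fold lower in the mean, log2 difference −2.09, SE 0.15, adjusted p = 2.04e-06).

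In Hoxa, the 3 most posterior genes fell at p5 and were nearer to MEFs at p30. Hoxa11 (chr6:52242106-52245810, minus strand), which acts in the forearm and uterus, was at 10.8, 11.3 and 12.99 FPKM in MEFs, at 0.198, 0.569 and 0.415 at p5 and at 1.85, 4.28 and 3.09 at p30. It was lower than in MEFs at p5 (log2 difference −3.19, SE 0.22, adjusted p = 1.79e-06) and at p30 (−1.68, SE 0.22, adjusted p = 0.000132). An antisense gene, Hoxa11os, overlaps 35.0% of the exon bases of Hoxa11 on the other strand. Hoxa13, needed for the hand and foot plate, was at 4.32, 6.01 and 7.37 FPKM in MEFs, at 0.817, 0.751 and 0.589 at p5 and at 2.15, 2.73 and 2.41 at p30, with log2 differences from MEFs of −1.98 (SE 0.18, adjusted p = 1.04e-05) and −0.99 (SE 0.18, adjusted p = 0.000991). Hoxa10, a uterine and lumbar gene, was at 12.3, 8.93 and 12.3 FPKM in MEFs, at 2.61, 2.76 and 3.69 at p5 and at 5.98, 11.6 and 6.37 at p30, where the line 2-1 library lay within the range of MEFs. Against MEFs its difference passed at p5 (log2 difference −1.60, SE 0.24, adjusted p = 0.000277) and not at p30 (log2 difference −0.48, SE 0.24, adjusted p = 0.105). Without that line 2-1 library the p30 difference passed (log2 difference −0.75, adjusted p = 0.00747). Hoxa9, which is active in blood progenitors, was at 7.25 to 9.46 FPKM in MEFs and at 3.46 to 9.77 in ciXEN cells and did not pass (log2 difference −0.50, 95% confidence interval −1.08 to 0.08). It was called lower without the p30 library of line 2-1 (adjusted p = 0.0244) or the p5 library of line 3-3 (adjusted p = 0.0331).

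In Hoxc, Hoxc10, a hindlimb-level gene, was at 11.8, 11.1 and 9.66 FPKM in MEFs, at 1.62, 0.941 and 1.59 at p5 and at 3.37, 5.61 and 4.14 at p30 (3.77-fold lower in the mean of ciXEN cells, log2 difference −1.74, SE 0.16, adjusted p = 1.12e-05). On the same strand, 166 exon bases of Hoxc10-201, 8.70%, overlap exons annotated to Hoxc5. These lie outside Hoxc5-201, the only transcript behind the Hoxc5 values, which shares 0 exon bases with other genes on that strand. The part of this overlap in the values of Hoxc10 and Hoxc5 was not tested. Hoxc9, a thoracic gene, was at 3.77, 5.97 and 4.08 FPKM in MEFs, at 2.04, 2.55 and 3.10 at p5 and at 5.42, 7.74 and 5.11 at p30. It was below MEFs at p5 (log2 difference −0.64, SE 0.21, adjusted p = 0.0202), a call that was lost without MEF library 2 (adjusted p = 0.0773) or the p5 library of line 1-1 (adjusted p = 0.0722), and at p30 its difference of 0.34 (95% confidence interval −0.12 to 0.81) did not pass. Hoxc13, known from hair and nails, was below the limit for testing and was the only posterior member that was higher in every ciXEN library than in every MEF library, at 0 to 0.133 FPKM in MEFs, 0.149 to 0.263 at p5 and 0.542 to 0.767 at p30. With no filter it was called higher against MEFs over both passages and at p30.

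Between passages, 5 posterior genes of Hoxa and Hoxc rose and no tested Hox gene was called lower. Hoxa10, Hoxa11, Hoxa13, Hoxc9 and Hoxc10 were higher at p30 than at p5, 5 of the 29 tested genes or 17.2%, beside 8.69% of all genes called in either direction, 3.08% called higher and 5.61% called lower. At an unadjusted p under 0.05 the limma fit counted 8 of the 29 Hox genes (27.6%), beside 3105 of all 12443 genes, a share near it. The 8 were the 5 and Hoxd8, Hoxd9 and Hoxd10, which were lower. Passage ranges did not overlap for 6 of the 29, those 5 and Hoxa4, all of them higher, beside 28.8% of all genes in either direction, 12.4% higher and 16.4% lower. For the 5 genes picked by this call, every line was higher at p30 than at p5. This follows from their ranges and is not separate support. Hoxa11 had the greatest difference, 7.80-fold in the mean (log2 difference 1.51, SE 0.22, adjusted p = 0.00559), followed by Hoxc10 (3.16-fold, log2 difference 1.17, SE 0.19, adjusted p = 0.00830), Hoxa10 (2.65-fold, log2 difference 1.12, SE 0.24, adjusted p = 0.0234), Hoxa13 (3.38-fold, log2 difference 1.00, SE 0.18, adjusted p = 0.0121) and Hoxc9 (2.38-fold, log2 difference 0.99, SE 0.21, adjusted p = 0.0215). At p30 the means of Hoxa11, Hoxa13 and Hoxc10 still lay below those of MEFs, and that of Hoxc9 lay above.

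These calls depended on the fit. Libraries of the same line were paired between passages, and with the line as a replicate block among the 6 ciXEN libraries alone 0 Hox genes passed with limma (adjusted p from 0.106 for Hoxa11 to 0.172 for Hoxa10), with 6 at an unadjusted p under 0.05. In that fit no gene of all 12443 passed, and 2538 had an unadjusted p under 0.05. With the replicate block in the fit of all 9 libraries 4 of the 5 passed, and Hoxa10 had an adjusted p of 0.0504. Without the block, 3 passed when only the p5 and p30 libraries entered the fit, with Hoxa10 (adjusted p = 0.0895) and Hoxc9 (adjusted p = 0.0650) lost. Leaving out the p5 library of line 1-1 or of line 2-1 also lost Hoxa10 and Hoxc9, and leaving out the p30 library of line 2-1 lost Hoxc9 (adjusted p = 0.0578).

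Hoxd values differed between the lines. Hoxd10, a lumbar motor neuron gene, was at 2.59, 4.19 and 5.45 FPKM in MEFs. At p5 it was listed at 0 in line 1-1 and was at 2.12 and 3.55 FPKM in lines 2-1 and 3-3, and at p30 it was listed at 0 in lines 1-1 and 2-1 and was at 0.0454 FPKM in line 3-3. Hoxd9 was at 0.558 to 0.864 FPKM in MEFs, at 0.492, 1.85 and 3.37 FPKM at p5 in lines 1-1, 2-1 and 3-3, and at 0.633, 0.158 and 0.145 FPKM at p30. Hoxd8 was at 1.27, 2.66 and 2.72 FPKM at p5 and at 1.59, 0.730 and 0.285 at p30. In line 1-1 Hoxd8 and Hoxd9 were slightly higher at p30 and Hoxd10 was listed at 0 at both passages, while in lines 2-1 and 3-3 all 3 genes were lower at p30. The p30 against p5 differences were −0.81 for Hoxd8 (95% confidence interval −1.43 to −0.18, adjusted p = 0.107), −1.03 for Hoxd9 (−1.80 to −0.26, adjusted p = 0.0980) and −1.25 for Hoxd10 (−2.33 to −0.18, adjusted p = 0.139), and none passed. Without the p5 library of line 1-1, Hoxd9 and Hoxd10 were called lower at p30. The summed Hoxd level was 2.02, 7.80 and 12.1 FPKM at p5 and 3.21, 1.38 and 0.800 FPKM at p30 in lines 1-1, 2-1 and 3-3.

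**Figure D4:**
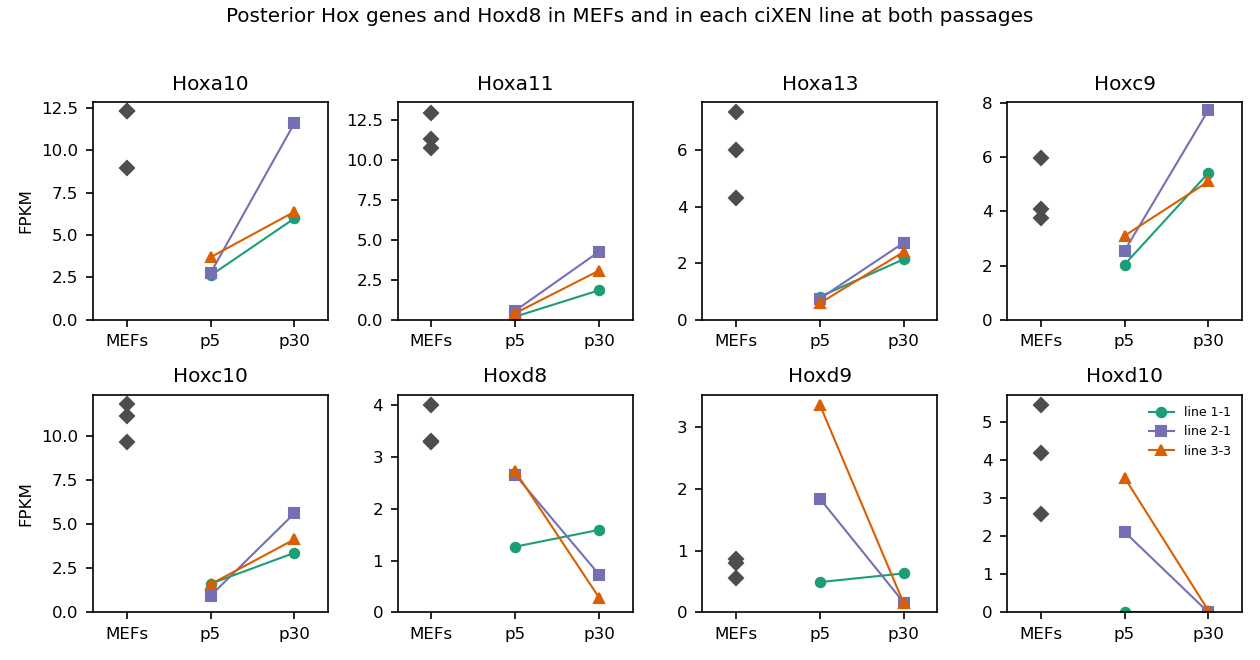
FPKM (vertical axis, each from 0) of posterior Hox genes and Hoxd8 in the MEF libraries (grey diamonds) and in ciXEN lines 1-1, 2-1 and 3-3, with a line joining p5 and p30 of the same ciXEN line. Hoxa10, Hoxa11, Hoxa13, Hoxc9 and Hoxc10 are higher at p30 in all 3 lines, whereas Hoxd10 goes from 2.12 and 3.55 FPKM to 0 and 0.0454 in lines 2-1 and 3-3.

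Over the 6 tested genes of Hoxc the passage difference grew with paralog number, up to Hoxc10. It was −0.37 for Hoxc4, −0.15 for Hoxc5, 0.02 for Hoxc6 and 0.39 for Hoxc8. For Hoxc9 it was 0.99 and for Hoxc10 1.17. The untested members beyond Hoxc10 are not in this order. Hoxc11 was listed at 0 at both passages, and Hoxc13 had means of 0.199 FPKM at p5 and 0.659 at p30. Spearman's rho was 1.00 over the 6 tested genes, a description. The same rho was 0.45 over the 10 genes of Hoxa, −0.36 over the 7 of Hoxb and 0.37 over the 6 of Hoxd. The passage difference of Hoxa3 was −0.02 (95% confidence interval −0.35 to 0.31).

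The 33 genes were represented by 46 transcripts, and 11 genes had more than 1. The homeobox-lacking Hoxa3-202 was at 0.390 to 0.794 FPKM in MEFs and listed at 0 in all 6 ciXEN libraries, where Hoxa3-201 carried the whole value. For Hoxa9 the transcript without a homeobox (Hoxa9-202) held 66.5% of the FPKM in MEFs, 76.3% at p5 and 68.0% at p30. These splits rest on the authors' assignment of shared exons to transcripts and were given no test.

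RefSeq promoter windows of 300 bases, mostly upstream of a transcript start, on GRCm38.p6 matched 19 of the 33 genes with 21 windows. They held a median of 14 CG pairs, beside 7 over all 32851 windows. Sequences were searched on both strands for AGGTCA and GGGTCA, hexamers that nuclear receptors such as the retinoic acid receptors bind, for TTTAT, the core of caudal-type and posterior Hox sites, and for TGATTNAT, a site of Hox and Pbx proteins together. AGGTCA was in 6 of 21 Hox windows (28.6%), beside 16.3% of all windows, GGGTCA in 1 (4.76%), beside 13.7%, TTTAT in 8 (38.1%), beside 40.0%, and TGATTNAT in 2 (9.52%), beside 3.22%. The windows below are those of a central gene that rose, of the posterior gene with the greatest passage difference and of the posterior gene with the greatest fall on the log2(FPKM + 1) scale, written 5′ to 3′ on the gene's strand with the matches to AGGTCA, to GGGTCA and to TTTAT in capitals, on either strand.
Hoxc4, chr15:103034145-103034444, plus strand: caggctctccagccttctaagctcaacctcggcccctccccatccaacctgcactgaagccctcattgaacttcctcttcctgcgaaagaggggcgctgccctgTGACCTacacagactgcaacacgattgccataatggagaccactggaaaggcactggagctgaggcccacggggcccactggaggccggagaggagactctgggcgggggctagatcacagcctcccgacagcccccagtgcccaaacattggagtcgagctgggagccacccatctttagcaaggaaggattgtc
Hoxa11, chr6:52245761-52246060, minus strand: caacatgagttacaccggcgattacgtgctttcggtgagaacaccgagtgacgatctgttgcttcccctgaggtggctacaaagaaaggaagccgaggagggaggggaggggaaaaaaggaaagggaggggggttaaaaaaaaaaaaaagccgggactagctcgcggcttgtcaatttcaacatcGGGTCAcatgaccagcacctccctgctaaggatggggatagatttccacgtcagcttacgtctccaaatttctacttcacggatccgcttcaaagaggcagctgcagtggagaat
Hoxd13, chr2:74667975-74668274, plus strand: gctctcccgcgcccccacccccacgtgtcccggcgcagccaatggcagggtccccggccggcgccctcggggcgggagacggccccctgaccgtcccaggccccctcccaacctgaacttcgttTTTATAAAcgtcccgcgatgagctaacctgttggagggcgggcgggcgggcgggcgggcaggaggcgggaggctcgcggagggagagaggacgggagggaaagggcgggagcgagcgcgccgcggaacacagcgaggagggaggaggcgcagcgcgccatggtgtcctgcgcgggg
In Hoxc4 the match is read on the opposite strand as TGACCT, in Hoxa11 GGGTCA lies on the gene's own strand, and in Hoxd13 TTTAT and its reverse overlap in a single run of 8 bases. A match is a description of the letters and not a site of binding, and binding was not measured in these libraries.

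Hox proteins bind DNA with TALE cofactors of the Pbx, Meis and Pknox families. Of 7 tested cofactors, 2 were higher in ciXEN cells (Pbx2 and Pknox1), 2 lower and 3 did not pass, beside 42.4% higher and 27.6% lower of all tested genes. Their median difference was −0.23, beside 0.20 over all genes. Pknox2 fell from 6.77 FPKM in the mean of MEFs to 0.0352 and 0.159 at p5 and p30 (log2 difference −2.82, SE 0.12, adjusted p = 6.58e-08), and Meis2 from 16.0 to 2.75 and 5.76. Meis2 was among the genes that rose from p5 to p30 (log2 difference 0.85, adjusted p = 0.0223), and Pbx3 fell between passages (log2 difference −0.74, adjusted p = 0.0101).

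Of the factors that act on Hox clusters, the methyltransferase complex PRC2, which lays down the repressive H3K27 mark, had 6 of 10 tested members higher, 2 lower and 2 not passing (median 0.77), beside 42.4% higher, 27.6% lower and a median of 0.20 over all tested genes. Ezh1, an enzymatic subunit, went from 4.74 ± 0.438 FPKM in MEFs to 31.9 ± 4.13 at p5 and 24.6 ± 1.49 at p30, Jarid2 from 3.62 to 28.9 and 22.1 FPKM and Rbbp7 from 153 to 429 and 466 FPKM in the means, whereas Phf1 and Aebp2 fell. Of the ubiquitin ligase complex PRC1, 8 of 19 were higher, 3 lower and 8 did not pass (median 0.17), a share of higher genes and a median near those of all genes. Pcgf5 and Pcgf6 had the greatest rises, with log2 differences of 2.17 and 1.39, and Cbx6 fell by 1.35 on the log2 scale. Of the Trithorax and H3K79 methylation genes 14 of 20 were higher, 3 lower and 3 did not pass (median 0.48), beside the same 42.4% and 27.6% of all genes. Kmt2c, Dpy30 and Men1 rose the most, with log2 differences of 2.57, 1.14 and 1.12, and Aff1 and Kdm6b fell by 1.00 and 0.43 on the log2 scale. Dot1l, named here as the target of EPZ004777, was at 9.86 FPKM in MEFs and at 18.2 and 15.9 FPKM at p5 and p30 in the means (log2 difference 0.74, SE 0.11, adjusted p = 0.0002). In p30 against p5, limma called no tested PRC2 gene, Cbx6 lower in PRC1 (log2 difference −1.09, adjusted p = 0.0310), and Psip1 higher (0.54, adjusted p = 0.00784) and Kmt2d lower (−0.46, adjusted p = 0.0436) among the Trithorax genes.

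The retinoic acid receptors were mostly lower. Of 5 tested, Rarg, Rara and Rxra fell, Rxrb rose and Rarb did not pass, beside 27.6% lower and 42.4% higher of all tested genes. Rarg was at 45.6, 43.3 and 46.4 FPKM in MEFs and at 0.272 to 0.644 FPKM in ciXEN cells (log2 difference −5.02, SE 0.12, adjusted p = 1.65e-09), and Rara went from 29.6 ± 1.81 FPKM to 13.5 ± 1.54 and 10.5 ± 1.53. Of 6 caudal and ParaHox genes, the sister family of the Hox clusters, 2 were listed and both rose: Cdx2, which activates central and posterior Hox genes in the embryo, was listed at 0 in all MEF libraries and was at 2.32 to 3.85 FPKM in ciXEN cells, and Gsx2 went from 0 to 0.0563 FPKM to 0.948 to 9.87 FPKM. Among 5 regulators of the body axis, 3 rose and 2 fell. The shares of all genes beside these 2 short lists are the same 42.4% higher and 27.6% lower. Gbx2, a hindbrain boundary factor, went from 0.158 to 0.219 FPKM in MEFs to 20.8 to 81.4 FPKM in ciXEN cells (log2 difference 5.47, SE 0.33, adjusted p = 5.21e-07), Nr6a1, which sets the timing of trunk Hox genes, from 0.314 to 0.370 to 6.85 to 11.7 FPKM, and Zbtb16, which restrains posterior genes in the limb, from 0 to 0.0719 to 1.57 to 3.09 FPKM. Egr2, an activator of anterior Hox genes in the hindbrain, fell, as did Gdf11.

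The genes that flank the clusters went in both directions. The 2 nearest tested protein-coding genes on each side of each cluster, 16 in all and 88.9 to 930 kb away, had 7 higher, 5 lower and 4 not passing in ciXEN cells against MEFs, near the 42.4% higher and 27.6% lower of all genes, with a median of 0.15, beside 0.20, and a range from −1.12 (Lnpk, beside the posterior end of Hoxd) to 1.39 (Smug1, beside the anterior end of Hoxc). Mtx2, at the other end of Hoxd, did not pass (log2 difference −0.12, SE 0.11). The Lnpk difference at p30 (log2 difference −0.90, adjusted p = 0.0223) was lost without MEF library 1 (adjusted p = 0.0589), MEF library 3 (adjusted p = 0.0867) or the p30 library of line 3-3 (adjusted p = 0.0788). The calls over both passages of Cbx5 (adjusted p = 0.0549 to 0.0746 with equal library medians, equal library sums or quantile normalisation, and 0.0694 without MEF library 2), Cbx1 (0.0926 without MEF library 3) and Snx11 (0.0584 to 0.0907 without MEF library 1, MEF library 3 or the p5 library of line 1-1) were lost as well. Between p5 and p30, Calcoco1 fell by 0.76 (adjusted p = 0.00920) and the other 15 did not pass.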

How the data were processed

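Total RNA of 9 mouse libraries was depleted of ribosomal RNA and sequenced with a strand-marking kit. The authors deposited FPKM values for 29599 Ensembl mouse transcripts. Per the submitters' processing notes, HISAT2 2.0.5, STAR 2.5.2b, StringTie and cutadapt were used, with the human build hg19 named. The aligner and build behind the values, and the use of strand, are not given in the sources used here. Of the transcripts, 29521 matched GENCODE M21 on GRCm38 by stable ID (28196 with the same version), the 78 others held 0.158% of the FPKM and were left out, and FPKM were summed per gene.

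The 12443 of 13787 genes whose mean reached 0.5 FPKM were tested on log2(FPKM + 1) with limma 3.58.1 in R 4.3.3 (all 9 libraries, eBayes with a trend, 6 residual and 3.16 prior degrees of freedom, Benjamini-Hochberg over all genes tested, two-sided, threshold 0.05). Differences on this scale understate the change of low genes, and fold values are ratios of mean FPKM. Nothing says that the MEF libraries came from separate embryos, so p-values measure the spread between these libraries. The method was tested on simulated data.

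1 listed Hox gene and 2 genes of other lists are not reported here and stand in no count, sum or figure of Hox genes or lists, although all genes entered the fits. Every other listed Hox gene was named. From the other lists, chosen from textbook knowledge, the called genes with the greatest changes were named, up to 3 a list and up to 2 against the rest, and the few others were chosen after their values were seen. The members and lists were chosen with earlier results of these data known. Promoter sequences are from RefSeq (GRCm38.p6) and homeoboxes from GENCODE transcripts.

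Libraries of a line at p5 and p30 share the line by their labels. The main fit has no term for the line, so the p5 and p30 libraries of a line count as separate there. After group means were removed they correlated over all genes at −0.0054, 0.014 and 0.071. Over the tested Hox genes the values were −0.19, 0.049 and 0.17. MEFs share only a number with them. Alternatives were pseudocounts of 0.1 and 0.5, no filter or a mean of 1 FPKM, equal library sums, equal medians, quantile normalisation, no trend, the groups compared alone, the replicate block and leaving out each library in turn.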

Additional observations from a re-analysis of the deposited data

Results flagged for a closer look

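The difference from MEFs was not the same at both passages for 5 posterior Hox genes, by the limma contrast of p30 with p5, which is the test of that difference itself. Passage 30 minus passage 5 was 1.51 for Hoxa11, 1.17 for Hoxc10, 1.12 for Hoxa10, 1.00 for Hoxa13 and 0.99 for Hoxc9 on the log2(FPKM + 1) scale. All 3 lines were higher at p30 for each of them, which follows from passage ranges that did not overlap. With the line as a replicate block among the 6 ciXEN libraries none of the 5 passed, with adjusted p from 0.106 to 0.172.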

How the results depend on the processing

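No Hox call changed direction under any alternative run. Of ciXEN cells against MEFs, 22 Hox genes were called, 22 to 23 when a library was left out, 26 with no filter (33 tested) and 18 at a mean of 1 FPKM (23 tested). Against MEFs, p5 had 20 (19 to 23 without a library) and p30 had 20 (19 to 23). For p30 against p5, the 5 calls became 3 with only the groups compared, 0 with the replicate block in the 6 ciXEN libraries, 4 with the replicate block in all 9, and 3 to 7 without a library. The 7 came without the p30 library of line 1-1 (Hoxc8 and Hoxd8 gained) and the 3 without the p5 library of line 2-1. The replicate block in all 9 libraries added Hoxd10 at p5 (adjusted p = 0.0399) and Hoxb4 at p30 (adjusted p = 0.0469) against MEFs and changed no other call against MEFs. The cause of these changes was not tested. Over all genes, p30 against p5 gave 1081 calls (35.4% higher), 1311 with equal library medians (59.1% higher), 986 with quantile normalisation (46.6% higher), 431 with only the groups compared and 0 with the replicate block in the 6 ciXEN libraries. Equal medians moved the median of all genes from −0.02 to 0.08, and the 5 Hox calls were kept. The Hoxa sum of MEFs was 63.9 FPKM with equal library sums. Low values limit what can be said of Hoxb5, Hoxc11, Hoxc13 and Hoxd11, and the lack of counts leaves their counting error unknown.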
